A study of Mus musculus with 8 samples.

Results

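Meg3 and Mirg are noncoding RNAs of the Dlk1-Dio3 region of mouse chromosome 12, and their signals were followed over 8 brain arrays. Every probe set annotated with the single gene symbol Meg3 or Mirg was taken. That gave 8 of the 22511 probe sets on the array, 6 of them for Meg3 and 2 for Mirg, for 2 of 9607 named genes. All 8 passed the filter on dim probe sets, which kept 13221 of the 22511 for testing. They are called Meg3 A (1429256_at), Meg3 B (1429257_at), Meg3 C (1428764_at), Meg3 D (1428765_at), Meg3 E (1452905_at), Meg3 F (1452906_at), Mirg A (1440097_at) and Mirg B (1457030_at). Meg3 A and Meg3 B were designed from one source sequence, Meg3 C, D and E from another, and Meg3 F from a further one. Mirg A and Mirg B came from separate source sequences. The positions of the probes within the transcripts were not used here.

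The study hybridised each RNA to 1 Affymetrix 430B array. The RNA came from neonatal cortex, neonatal cerebellum, and whole brain of embryos at 15.5 and 13.5 days post coitum (dpc). All mice were T9H/+ heterozygotes, carriers of a translocation between chromosomes 7 and 15, and no array came from mice without it. In each of these 4 contexts 1 array came from mice with a paternal duplication of proximal chromosome 7 and a maternal duplication of proximal chromosome 15, here paternal-7, and 1 from the reverse, here maternal-7. There were thus 4 neonatal and 4 embryonic arrays, and 4 paternal-7 and 4 maternal-7 arrays. There were no replicates within a context and duplication, and the labels do not say how many animals gave an RNA or whether animals were pooled. The p-values therefore use only the spread between these arrays. In the fitted model each context has its own level. Its SEs and p-values rest on how the duplication difference varied over the contexts, moderated over probe sets. Differences between cortex and cerebellum, or between 15.5 and 13.5 dpc, do not widen the SE of the neonatal against embryonic comparison.

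Meg3 and Mirg are transcribed from the maternally inherited chromosome, while Dlk1, Rtl1 and Dio3 of the same region are expressed from the paternal one. A methylated control region between Dlk1 and Meg3 governs this allele choice in the embryo. Meg3 is a long noncoding RNA abundant in the nervous system, and Mirg, at the other end of the maternal cluster, hosts a large group of microRNAs. Neither gene lies on a duplicated chromosome.

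The 3 windows below surround the transcription starts annotated in the RefSeq table for build GRCm38.p6, which these arrays do not test. Each holds 250 bases before and 50 after a start, all on the plus strand. Meg3 has 2 annotated starts, at chr12:109540746-109541045 and chr12:109545148-109545447, and Mirg has 1, at chr12:109734731-109735030. Capitals mark matches to the motifs TGACGTCA, TATAAA and CCAAT, searched on both strands. In the first Meg3 window TATAAA matched on both strands, and these matches overlap in the longer capital run.
Meg3, first start: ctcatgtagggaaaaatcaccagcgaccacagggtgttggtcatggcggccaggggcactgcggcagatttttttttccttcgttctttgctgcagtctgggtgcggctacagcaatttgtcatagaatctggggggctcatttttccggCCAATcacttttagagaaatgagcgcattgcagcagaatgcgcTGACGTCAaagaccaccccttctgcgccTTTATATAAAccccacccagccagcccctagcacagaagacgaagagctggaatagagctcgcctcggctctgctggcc
Meg3, second start: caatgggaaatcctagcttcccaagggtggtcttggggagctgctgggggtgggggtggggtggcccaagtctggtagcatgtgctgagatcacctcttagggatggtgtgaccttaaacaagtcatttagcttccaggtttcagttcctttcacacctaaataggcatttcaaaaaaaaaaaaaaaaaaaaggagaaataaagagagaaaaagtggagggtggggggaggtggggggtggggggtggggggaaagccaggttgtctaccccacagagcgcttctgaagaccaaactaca
Mirg start: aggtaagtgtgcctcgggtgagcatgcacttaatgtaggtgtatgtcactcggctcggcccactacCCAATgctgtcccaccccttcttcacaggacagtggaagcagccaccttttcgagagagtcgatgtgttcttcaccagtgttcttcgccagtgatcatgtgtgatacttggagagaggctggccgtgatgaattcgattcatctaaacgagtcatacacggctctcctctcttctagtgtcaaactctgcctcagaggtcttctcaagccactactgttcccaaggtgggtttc
The first Meg3 window held 4 matches covering all 3 motifs, the Mirg window held 1 match and the second Meg3 window held 0. Of the 32851 windows in the table, 1.79% held TGACGTCA, the cyclic AMP response element, 13.6% held TATAAA and 37.4% held CCAAT. All 3 motifs stood together in 21 windows, or 0.0639%.

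The microRNAs within the genes are shown because they are the known products of the host transcripts. RefSeq places 3 mature microRNAs from 2 hairpins within the Meg3 gene, and 19 from 10 hairpins within the Mirg gene. The mature sequences below are 5′ to 3′, with the seed (bases 2 to 8) in capitals. The 3 of Meg3 are given first, then 4 of Mirg, of which miR-453 and miR-496a-5p carry one shared seed.
miR-1906: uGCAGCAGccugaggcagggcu
miR-770-5p: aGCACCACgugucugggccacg
miR-770-3p: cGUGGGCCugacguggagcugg
miR-453: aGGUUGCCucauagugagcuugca
miR-496a-5p: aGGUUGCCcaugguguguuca
miR-410-3p: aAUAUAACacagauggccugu
miR-154-3p: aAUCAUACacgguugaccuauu
The 19 Mirg microRNAs carried 18 different seeds. The array measures longer transcripts, so no mature microRNA has a value in these data.

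The mean signal between the 2nd and the 98th percentile lay between 497.3 and 498.0 on all 8 arrays. Such near-equal means can come from the scaling of each array in the processing, so they are no independent check. The array medians differed with age, from 229.8 to 235.2 in neonatal and from 257.1 to 285.7 in embryonic arrays. The effect of centring each array on its median is given below. Snhg14, the paternally expressed host of the chromosome 7 small nucleolar RNAs, served as the check of the labels. Its brightest probe set read 2372, 1844, 1197 and 667.3 in the paternal-7 cortex, cerebellum, 15.5 dpc and 13.5 dpc arrays. The maternal-7 arrays of the same contexts read 0.262, 0.641, 3.67 and 33.9, so every array matched its label. The tissue labels were checked through fixed markers. The 5 tested cortex markers summed to 18730 and 18520 in the cortex arrays, against 5751 and 6024 in the cerebellum arrays. The 3 tested cerebellum markers summed to 4413 and 7165 in cortex, against 12080 and 13350 in cerebellum.

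The neonatal arrays hold dissected cortex and cerebellum and the embryonic arrays whole brain, so age and the part of the brain sampled cannot be told apart in this comparison. All 6 Meg3 probe sets were brighter in every neonatal array than in every embryonic array, and both Mirg probe sets were on average dimmer in neonatal brain. Meg3 A, B, C, D, E and F rose in neonatal brain, by ratios of mean signal between 1.72 and 4.86. Mirg A and Mirg B had ratios of 0.772 and 0.739, and neither passed the test. Among the 13221 tested probe sets, 11.8% had all 4 neonatal arrays above all 4 embryonic ones and 16.5% had them all below. The test called 30.7% of all tested probe sets in this comparison, 14.3% as higher and 16.4% as lower.

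Meg3 A read 4116 and 4886 in the paternal-7 and maternal-7 cortex and 4923 and 6013 in the paternal-7 and maternal-7 cerebellum. In the embryos it read 2443 and 2470 at 15.5 dpc and 1555 and 2095 at 13.5 dpc, again paternal-7 before maternal-7. The lowest neonatal signal was thus above the highest embryonic one. The neonatal arrays averaged 4984 ± 780 and the embryonic arrays 2141 ± 426 (SD, n = 4 each). The fitted difference on the log2 scale was 1.21 ± 0.13 (SE), with limma's adjusted p = 0.00179.

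Meg3 B, from the same source sequence as Meg3 A, read 2372 and 2033 in the paternal-7 and maternal-7 cortex and 2157 and 2493 in cerebellum. The paternal-7 and maternal-7 embryos read 1401 and 1619 at 15.5 dpc and 1326 and 932.7 at 13.5 dpc. The groups did not overlap, but the gap between the lowest neonatal and the highest embryonic array was narrower than for Meg3 A in relation to their levels. The neonatal mean was 2264 ± 207 and the embryonic mean 1320 ± 286.2 (SD, n = 4 each). The log2 difference was 0.77 ± 0.17 (SE; limma's adjusted p = 0.0152). The call was lost without either neonatal pair of arrays (adjusted p = 0.0670 without cortex and 0.0689 without cerebellum).

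Meg3 C and Meg3 D, from a shared source sequence, had the widest spread between contexts after Meg3 F. Meg3 C read 1704 and 2968 in the paternal-7 and maternal-7 cortex and 2951 and 3685 in cerebellum. In the paternal-7 and maternal-7 embryos it read 1424 and 1411 at 15.5 dpc and 652.8 and 721.7 at 13.5 dpc. Its 13.5 dpc arrays were the dimmest, and the paternal-7 cortex array lay close above the 15.5 dpc arrays. Its neonatal mean was 2827 ± 823 and the embryonic mean 1053 ± 423 (SD, n = 4 each), a log2 difference of 1.41 ± 0.17 (SE; limma's adjusted p = 0.00219).

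Meg3 D read 2444 and 3958 in the paternal-7 and maternal-7 cortex and 3113 and 5157 in cerebellum. In the paternal-7 and maternal-7 embryos it read 1297 and 1182 at 15.5 dpc and 722.4 and 1118 at 13.5 dpc. Every neonatal array was above the embryonic ones by a wide margin. Neonatal arrays averaged 3668 ± 1170 and embryonic arrays 1080 ± 249.5 (SD, n = 4 each), a log2 difference of 1.69 ± 0.18 (SE; limma's adjusted p = 0.00164).

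Meg3 E, the third probe set of that source sequence, was also brightest in the neonatal tissues but did not order the embryonic stages as the other 5 did. It read 7799 and 9271 in the paternal-7 and maternal-7 cortex and 8143 and 9294 in cerebellum. The paternal-7 and maternal-7 embryos read 3300 and 4213 at 15.5 dpc and 4889 and 7157 at 13.5 dpc. The maternal-7 array at 13.5 dpc came nearest to the neonatal range. Meg3 E averaged 8627 ± 770 in neonatal and 4890 ± 1646 in embryonic arrays (SD, n = 4 each), a log2 difference of 0.86 ± 0.13 (SE; limma's adjusted p = 0.00488). Without the 15.5 dpc pair the adjusted p was 0.0561.

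Meg3 F had the widest difference between neonatal and embryonic arrays and the widest embryonic spread. It read 2586 and 2672 in the paternal-7 and maternal-7 cortex and 3609 and 3485 in cerebellum. In the paternal-7 and maternal-7 embryos it read 210.7 and 1951 at 15.5 dpc and 111.4 and 270.3 at 13.5 dpc. A single embryonic array, maternal-7 at 15.5 dpc, was near the neonatal level, and both paternal-7 embryonic arrays fell below their array's median signal. The neonatal mean was 3088 ± 534 and the embryonic mean 635.9 ± 879.2 (SD, n = 4 each). The log2 difference was 2.90 ± 0.47 (SE; limma's adjusted p = 0.00597).

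**Figure D1:**
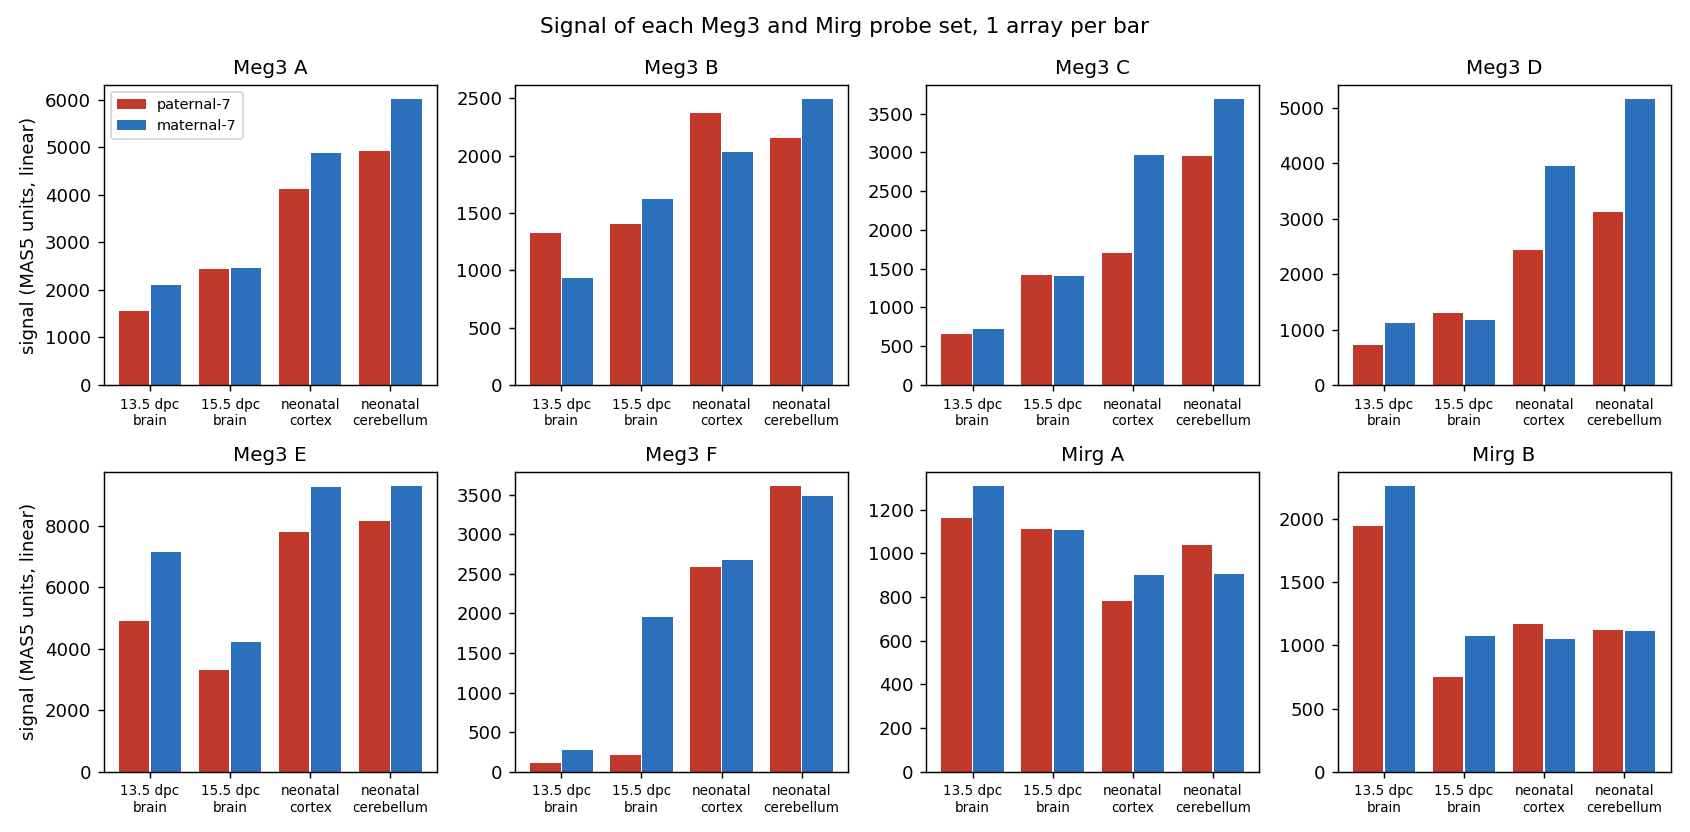
Deposited signal on a linear scale (vertical axis, from 0 in each panel) of the 6 Meg3 and 2 Mirg probe sets in each context (horizontal axis), with 1 bar per array, paternal-7 left of maternal-7. The Meg3 panels are tallest in neonatal cortex and cerebellum, the Mirg panels are flatter or tallest at 13.5 dpc, and Meg3 F shows a single tall embryonic bar, 1951 in the maternal-7 array at 15.5 dpc.

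Mirg A read 780.4 and 901.2 in the paternal-7 and maternal-7 cortex and 1037 and 906.5 in cerebellum. The paternal-7 and maternal-7 embryos read 1114 and 1108 at 15.5 dpc and 1163 and 1309 at 13.5 dpc. All 4 neonatal arrays were below all 4 embryonic arrays, a separation shared by 16.5% of tested probe sets. Mirg A averaged 906 ± 105 in neonatal and 1173 ± 93.8 in embryonic arrays (SD, n = 4 each). The log2 difference was -0.36 ± 0.14 (SE) and did not pass, with limma's adjusted p = 0.0854, though it passed with the stricter filter (adjusted p = 0.0427).

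Mirg B read 1167 and 1047 in the paternal-7 and maternal-7 cortex and 1121 and 1115 in cerebellum. In the paternal-7 and maternal-7 embryos it read 749.4 and 1073 at 15.5 dpc and 1942 and 2260 at 13.5 dpc. The neonatal values lay among the embryonic ones, with the 13.5 dpc pair well above the other 6 arrays. The neonatal mean was 1112 ± 49.4 and the embryonic mean 1506 ± 711 (SD, n = 4 each), a log2 difference of -0.29 ± 0.15 (SE; limma's adjusted p = 0.178). The value turned with the stage left out. It was -0.88 (adjusted p = 0.0130) without the 15.5 dpc pair and 0.29 without the 13.5 dpc pair.

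The median log2 difference of all tested probe sets was -0.16 in this comparison, and centring each array on its median moved it to 0.02. After centring, Meg3 differences ran from 0.95 to 3.08, all past the test, while Mirg A stood at -0.18 and Mirg B at -0.12. Without the 13.5 dpc pair, 3 of the 6 Meg3 calls were lost, with adjusted p = 0.104 for Meg3 B, 0.0555 for Meg3 C and 0.0910 for Meg3 F.

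**Figure D2:**
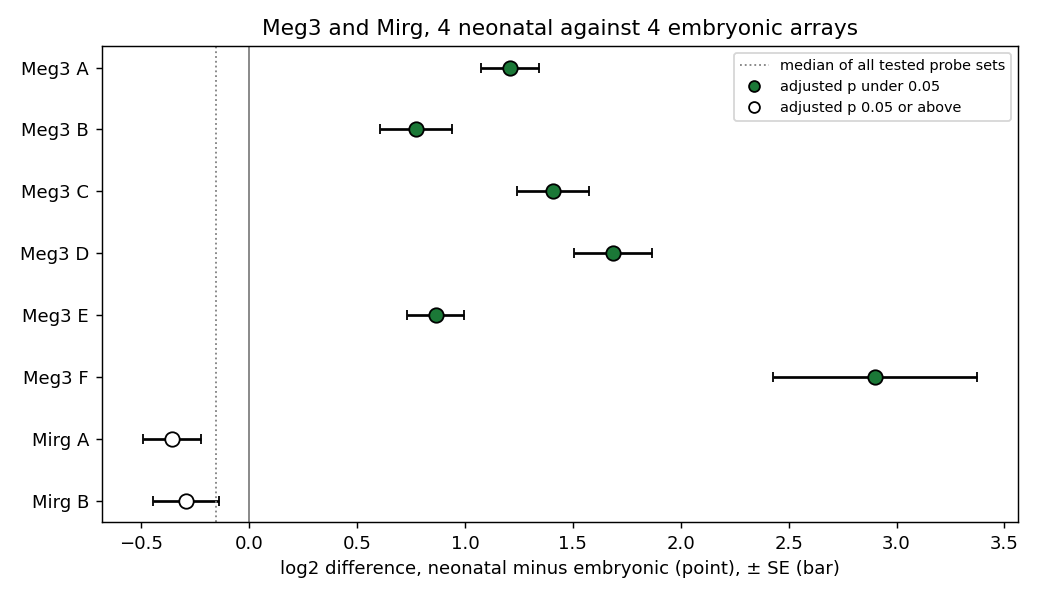
Log2 difference, neonatal minus embryonic (horizontal axis; point) with its SE (bar), for each Meg3 and Mirg probe set (vertical axis), from 4 neonatal and 4 embryonic arrays; filled points passed the test and the dotted line is the median of all tested probe sets. All 6 Meg3 points lie right of 0, from 0.77 to 2.90, and both Mirg points lie left of it and are open.

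Markers of several cell types differed along with the Meg3 probe sets. Of 12 fixed neuron markers, 5 were on the array under a single symbol and 4 were tested (Rbfox3, Syt1, Map2 and Nefl), and all 4 rose in neonatal brain. Their summed signal ran from 52480 to 62030 in neonatal arrays and from 15250 to 39490 in embryonic arrays. The 3 tested astrocyte markers (Aqp4, Slc1a2 and Slc1a3) rose as well, with sums of 10640 to 12460 in neonatal arrays and 3908 to 7040 in embryonic arrays. The single tested marker of neural progenitors, Rfx4, was higher as well (0.81, adjusted p = 0.0117). Lower in neonatal arrays were the single tested marker of dividing cells, Top2a (-0.71, adjusted p = 0.0410), and 1 of 2 mesenchyme markers, Prrx1 (-1.83, adjusted p = 0.00104). Of 5 cortex markers 1, Emx2, was also lower (-0.61, adjusted p = 0.0162), and 0 of 3 cerebellum and 0 of 3 choroid plexus markers passed. The part of these cell types in the Meg3 difference was not tested. In whole tissue RNA, a larger share of cells that express Meg3 and more Meg3 RNA per cell cannot be told apart. The fixed lists for oligodendrocytes, microglia, endothelium and red blood cells had no measured member.

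The order of the 4 contexts was the same for 5 Meg3 probe sets. Meg3 A, B, C, D and F had their lowest mean at 13.5 dpc, then 15.5 dpc, cortex and cerebellum. Meg3 A averaged 1825 at 13.5 dpc, 2456 at 15.5 dpc, 4501 in cortex and 5468 in cerebellum. Meg3 E had its lowest mean at 15.5 dpc, 3757, then 6023 at 13.5 dpc, 8535 in cortex and 8718 in cerebellum. Of the neighbours in these Meg3 orders, a single pair differed by the test, cortex and 15.5 dpc brain for Meg3 D. Cerebellum and cortex were not told apart for any of the 8 probe sets, with log2 differences, cortex minus cerebellum, between -0.54 (Meg3 C, SE 0.24, limma's adjusted p = 0.670) and -0.02 (Mirg B). Meg3 E, at -0.03, turned to 0.065 after quantile normalization. That comparison called 0.325% of all tested probe sets.

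Between the later and the earlier embryonic stage no Meg3 probe set passed the test. The log2 differences, 15.5 minus 13.5 dpc, were 0.43 ± 0.19 (SE) for Meg3 A, 0.42 ± 0.23 for Meg3 B, 0.99 ± 0.24 for Meg3 C and 0.44 ± 0.26 for Meg3 D. Meg3 E had -0.66 ± 0.19 and Meg3 F 1.64 ± 0.67 (SE). Limma's adjusted p was closest to the threshold for Meg3 C (0.0592) and Meg3 E (0.0921), which have opposite signs although they share a source sequence. Meg3 C passed after quantile normalization (adjusted p = 0.0430) and after centring, and both passed, in opposite directions, with the stricter filter. That comparison called 6.59% of all tested probe sets, 3.52% as higher and 3.07% as lower at 15.5 dpc.

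Mirg B fell at 15.5 dpc, with a mean of 911.1 against 2101 at 13.5 dpc, a log2 difference of -1.17 ± 0.22 (SE; limma's adjusted p = 0.0321). Its level at 13.5 dpc stood above the 3 other contexts. It was lower in cortex than at 13.5 dpc (log2 difference -0.89 ± 0.22, SE; limma's adjusted p = 0.0269) and lower in cerebellum than at 13.5 dpc (-0.87 ± 0.22, SE; adjusted p = 0.0288). Mirg A had no such step, with means of 1111 at 15.5 dpc and 1236 at 13.5 dpc and a log2 difference of -0.14 ± 0.19 (SE; adjusted p = 0.715). The Mirg B difference between the stages did not pass without the filter on dim probe sets (adjusted p = 0.0705), without the cortex pair (0.0671) or without the cerebellum pair (0.0692), and the differences of cortex and cerebellum from 13.5 dpc did not pass after centring (adjusted p = 0.0785 and 0.0865) or without the filter (0.0548 and 0.0576). Of the 2 tested mesenchyme markers Prrx1 fell too at 15.5 dpc (-2.90, adjusted p = 0.00579), while Dcn had -0.47 (adjusted p = 0.220). Their sums were 502.0 to 546.4 at 15.5 dpc and 2914 to 3130 at 13.5 dpc. In the other direction, 3 of the 4 tested neuron markers rose at 15.5 dpc, with sums of 34420 to 39490 at 15.5 dpc and 15250 to 22290 at 13.5 dpc. Also higher at 15.5 dpc were 1 of 5 cortex markers (Neurod2, 1.45, adjusted p = 0.0161) and 1 of 3 choroid plexus markers (Kcnj13, 1.03, adjusted p = 0.0314). The part of these markers in the Mirg B difference was not tested.

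Set against a single stage, the neonatal excess of Meg3 passed more often against the earlier one. Cortex was higher than 13.5 dpc brain for Meg3 A, B, C, D and F, with log2 differences from 0.94 (Meg3 B) to 3.51 (Meg3 F), in a comparison that called 25.7% of all tested probe sets, 13.3% as higher and 12.5% as lower. Against 15.5 dpc brain, where 4.22% were called and 2.7% as higher, cortex was higher for Meg3 D (1.29 ± 0.26, SE; limma's adjusted p = 0.0451) and Meg3 E (1.18 ± 0.19, SE; adjusted p = 0.0303). Cerebellum was higher than 13.5 dpc brain for the same 5 probe sets, from 1.02 (Meg3 B) to 3.93 (Meg3 F), where 24.8% were called, 13% as higher and 11.8% as lower. Against 15.5 dpc brain, where 5.46% were called and 3.66% as higher, cerebellum was higher for Meg3 A (1.13), C (1.19), D (1.65) and E (1.21). Without the filter on dim probe sets the Meg3 B call of cortex against 13.5 dpc was lost (adjusted p = 0.0580). These comparisons share arrays and are not independent. Meg3 E was above 13.5 dpc brain by 0.52 in cortex and 0.55 in cerebellum on the log2 scale, without passing (adjusted p = 0.0860 and 0.0747), but did pass against both after centring (adjusted p = 0.0487 and 0.0422). The calls against 15.5 dpc depended on the settings: all were lost without the filter on dim probe sets.

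**Figure D3:**
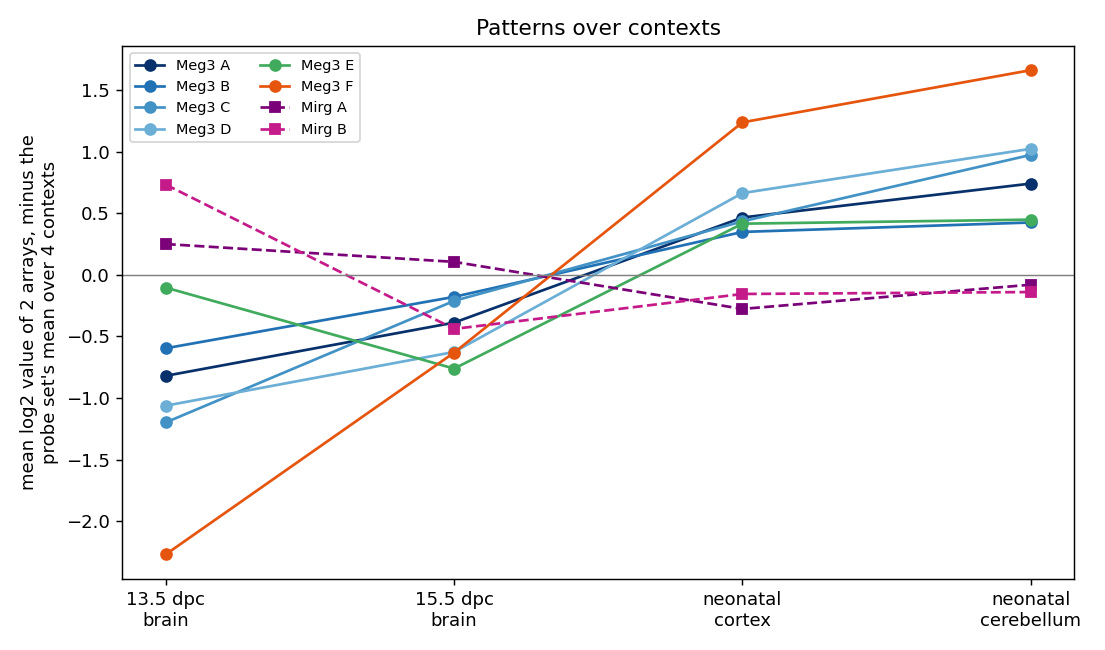
Mean log2 value of the 2 arrays of each context (horizontal axis), minus the probe set's own mean over the 4 contexts (vertical axis, log2 units), for 6 Meg3 (solid lines) and 2 Mirg (dashed lines) probe sets. Meg3 A, B, C, D and F climb from 13.5 dpc to cerebellum, Meg3 E dips at 15.5 dpc, and Mirg B is highest at 13.5 dpc.

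Whether the Meg3 probe sets differed in the size of their neonatal difference was tested on the log2 ratio of each of the 15 pairs, 4 neonatal against 4 embryonic arrays. None of the 15 passed an exact two-sided permutation test after adjustment. The smallest adjusted p was 0.214, and 1 pair passed before adjustment. That pair was Meg3 A over Meg3 D, whose log2 ratio differed by -0.48 between neonatal and embryonic arrays (exact permutation p = 0.0286, the smallest that 4 against 4 allows). Among the others the widest differences all involved Meg3 F, at -2.13 for Meg3 B over Meg3 F and -2.04 for Meg3 E over Meg3 F (exact permutation p = 0.0571 and 0.143). With no p below 0.0286 possible, adjustment over 15 pairs lets none pass unless most of them reach that value together. A miss here therefore does not show that the probe sets changed alike.

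Most ratios between the genes passed, in a family where 11 of 12 reached the smallest possible p together. Of the 12 ratios of a Meg3 to a Mirg probe set, a family added after the values were seen, all 12 had higher means in neonatal arrays. The differences of the log2 ratio ran from 1.07 (Meg3 B over Mirg B) to 3.26 (Meg3 F over Mirg A). The exact permutation test, adjusted over the 12, gave p = 0.0312 for 11 of them and 0.0571 for Meg3 C over Mirg B. For every ratio to Mirg A the smallest possible p was fixed beforehand. All Meg3 probe sets were higher, and Mirg A lower, in every neonatal array than in every embryonic one. Those ratios therefore add nothing to the separations already given, and they also enter the adjustment of the ratios to Mirg B. After quantile normalization Meg3 A over Mirg B (adjusted p = 0.0623) and Meg3 B over Mirg B (0.114) also missed. The 4 arrays of each side come from only 2 contexts, which such a test takes as exchangeable. The ratios share probe sets and arrays and are not independent. Their passing cannot be set against the miss among the Meg3 pairs.

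Likeness between probe sets was measured as the root mean square distance of their log2 values over the 8 arrays, each centred on its own mean, and is a description with no p. Meg3 A, C and D lay closest together, at 0.284 for A and C, 0.292 for A and D and 0.293 for C and D. Seen from Meg3 D, Meg3 A ranked 10 of 13220 tested probe sets, but seen from Meg3 A, Meg3 D ranked 303 and Meg3 C 261. Meg3 B lay 0.344 from Meg3 A, and Meg3 E lay 0.440 from it. Meg3 F lay between 1.09 and 1.46 from the other 5. Mirg A and Mirg B lay 0.402 apart, and Mirg B ranked 7639 of 13220 from Mirg A, a probe set of little variation. From Mirg B, Mirg A ranked 2056. Every Meg3 probe set lay between 0.624 and 1.99 from every Mirg probe set.

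For all 8 members the nearest profile belonged to another gene. Nearest to Meg3 A were Nrxn2, a presynaptic adhesion protein (distance 0.107), Opa1, a mitochondrial fusion protein (0.114), and Map6d1 (0.115). Nearest to Meg3 B were 9530077C05Rik (0.0937), Usp13 (0.100) and Ddhd1 (0.118). Nearest to Meg3 C were Plcxd3 (0.206), Tmem254a (0.209) and the bicarbonate transporter Slc4a4 (0.210). Nearest to Meg3 D were the cadherin Cdh8 (0.241), Hectd3 (0.244) and the axon guidance receptor Robo1 (0.257). Nearest to Meg3 E were Sec24a, a coat protein of vesicle export (0.125), Rragd (0.132) and Tenm3 (0.149). Meg3 F had only distant neighbours, Adgra1 (0.395), Pcdh11x (0.510) and Trim9 (0.566). Nearest to Mirg A were 5430402O13Rik (0.0432), Auh (0.0555) and Dcaf12 (0.0619), and nearest to Mirg B were Otud7b (0.113), the focal adhesion protein Tln2 (0.117) and Gm15527 (0.144).

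No difference between paternal-7 and maternal-7 brains passed the test for any of the 8 probe sets. For Meg3 and Mirg, this comparison asks whether genes outside the duplicated chromosomes move with the duplications. It called 1 of the 13221 tested probe sets, or 0.00756%. That one was a dimmer probe set of Snhg14 (log2 difference 3.41, limma's adjusted p = 0.0194). The brightest Snhg14 probe set, at 4.42, missed (adjusted p = 0.0595), as did another at 2.17 (adjusted p = 0.162). The test thus misses even large differences, and a miss does not show that a probe set is unchanged. At an unadjusted p under 0.05 the comparison held 1147. The log2 differences, paternal-7 minus maternal-7, were -0.24 ± 0.13 (SE) for Meg3 A, 0.07 ± 0.17 for Meg3 B and -0.30 ± 0.17 for Meg3 C. They were -0.47 ± 0.18 for Meg3 D, -0.33 ± 0.13 for Meg3 E and -0.96 ± 0.47 (SE) for Meg3 F. Mirg A had -0.04 ± 0.14 and Mirg B -0.14 ± 0.15 (SE). Limma's adjusted p was between 0.562 (Meg3 D) and 0.938 (Mirg A).

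In single contexts Meg3 A and Meg3 E were lower in the paternal-7 array in 4 of 4 contexts, as were 9.08% of tested probe sets. Meg3 C, D and F were lower in 3 of 4, and 31.2% of tested probe sets were lower in at least 3. Meg3 B, Mirg A and Mirg B were lower in 2 of 4. There is 1 array a side in each context, so no test applies within it. Of the 32 values, 8 probe sets in 4 contexts, a single one was at least 2-fold. That value was Meg3 F at 15.5 dpc, with 210.7 in the paternal-7 array and 1951 in the maternal-7 array, a log2 difference of -2.90. The 15.5 dpc pair had 7.92% of tested probe sets at least 2-fold apart, 4.44% with the paternal-7 array lower. The cortex pair had 2.7%, the cerebellum pair 2.87% and the 13.5 dpc pair 6.66% at least 2-fold apart. At 15.5 dpc 1 tested probe set had a lower value than Meg3 F.

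The same pair of arrays differed little in the 5 other Meg3 probe sets, whose log2 differences at 15.5 dpc ran from -0.35 (Meg3 E) to 0.13 (Meg3 D). At 13.5 dpc Meg3 F read 111.4 and 270.3 in the paternal-7 and maternal-7 arrays, a log2 difference of -0.95. In cortex and cerebellum its differences were -0.05 and 0.05. Of the marker sums at 15.5 dpc, neurons had 34420 (paternal-7) and 39490 (maternal-7), and the cerebellum markers 5207 and 9972. Astrocyte markers (5543 and 7040), choroid plexus markers (50660 and 58550) and Rfx4 (614.6 and 1064) were also higher in maternal-7. Cortex markers (15410 and 14690) and mesenchyme markers (546.4 and 502.0) went the other way. Top2a, a marker of dividing cells, read 160.4 (paternal-7, below that array's median of 277.9) and 425.0 (maternal-7). The part of these markers in the Meg3 F difference was not tested.

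Beside Meg3 F, the widest values were those of Meg3 C and Meg3 D. In cortex Meg3 C read 1704 (paternal-7) and 2968 (maternal-7), a log2 difference of -0.78, and 3.03% of tested probe sets had a lower one. Meg3 D had -0.68 in cortex, -0.72 in cerebellum and -0.59 at 13.5 dpc. Mirg A stayed between -0.19 (cortex) and 0.18 (cerebellum), and Mirg B between -0.49 (15.5 dpc) and 0.15 (cortex).

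**Figure D4:**
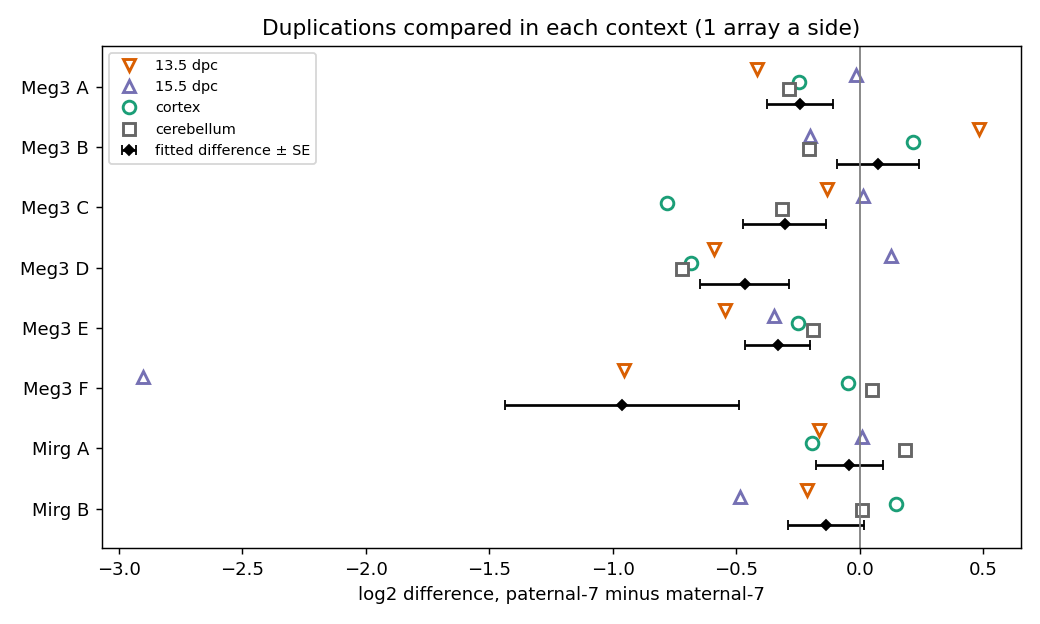
Log2 difference, paternal-7 minus maternal-7 (horizontal axis), of each Meg3 and Mirg probe set (vertical axis) in each of the 4 contexts (open symbols, 1 array a side) and as fitted over all 8 arrays (filled diamonds ± SE). Apart from Meg3 F at 15.5 dpc, with -2.90, the single-context values lie between -0.95 and 0.48, and the fitted ones between -0.96 (Meg3 F) and 0.07 (Meg3 B).

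Whether the duplication difference itself differed between neonatal and embryonic contexts was fitted with an interaction. For Meg3 F the difference was 1.93 ± 0.64 higher in neonatal than in embryonic contexts on the log2 scale (SE), and limma's adjusted p was 0.507, the lowest of the 8. For Mirg B it was 0.43 ± 0.25 (SE; adjusted p = 0.620). The other 6 lay between -0.49 (Meg3 C) and 0.23 (Meg3 E). Limma called 0 of the 13221 tested probe sets for this interaction and 1209 had an unadjusted p under 0.05.

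None of the other tested genes in and around the Dlk1-Dio3 region was called higher in neonatal brain. Of 21 fixed genes of the region and its flanks, 11 were on the array under a single symbol and 9 were tested, with 0 higher and 1 lower in neonatal brain. The lower one was Hsp90aa1, a chaperone gene at the distal flank, with -0.67 ± 0.16 (SE; limma's adjusted p = 0.0226). The median log2 difference of the 9 was -0.22, against -0.16 for all tested probe sets, of which 14.3% were called higher and 16.4% lower. Of the 9, only Rian lies between Meg3 and Mirg, and the others are flanking genes. Rian, the maternally expressed host of small nucleolar RNAs between Meg3 and Mirg, read 439.2 and 445.3 in the paternal-7 and maternal-7 cortex and 484.5 and 477.3 in cerebellum. The paternal-7 and maternal-7 embryos read 600.8 and 563.0 at 15.5 dpc and 757.2 and 578.6 at 13.5 dpc. Like Mirg A, Rian was below every embryonic value in every neonatal array, and its log2 difference of -0.39 ± 0.13 (SE) did not pass (adjusted p = 0.0683). Dlk1, the paternally expressed growth regulator of the region, was too dim to test, between 32.9 and 177.2 in neonatal and between 38.6 and 150.3 in embryonic arrays.

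The remaining tested genes were all of the flanks. Ppp2r5c, a phosphatase subunit, was at 0.37, Wdr25 at 0.12 and Evl, an actin regulator, at 0.11. Bcl11b, a transcription factor of cortical projection neurons, was at 0.06. Eml1 was at -0.22, Setd3 at -0.35 and Wars, a transfer RNA synthetase, at -0.37. None of these 7 passed. In the duplication comparison 0 of the 9 passed, with values from -0.52 (Wdr25) to 0.23 (Ppp2r5c).

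Imprinted genes elsewhere, each taken by its brightest tested probe set, were called in both directions between neonatal and embryonic arrays. Among all tested probe sets 14.3% were called higher and 16.4% lower. Whether these short lists differ from those shares was not tested. Of 20 maternally expressed genes of other regions 6 were tested, with 1 higher and 1 lower in neonatal brain. Ppp1r9a, an actin-binding protein of synapses, rose by 0.77 ± 0.13 (SE, limma's adjusted p = 0.00711). A dimmer Ppp1r9a probe set rose too, by 0.89 (adjusted p = 0.0125), while further ones had -0.40 and -0.36 without passing. Atp10a, a lipid flippase, had -0.82 ± 0.16 (SE, adjusted p = 0.0122). Of 25 paternally expressed genes 8 were tested, with 2 higher and 1 lower. Ipw, a noncoding RNA of the Snhg14 region, had 1.08 ± 0.32 (SE, adjusted p = 0.0458), and its neonatal and embryonic signals overlapped. Its maternal-7 arrays read 707.4 in cortex and 510.0 in cerebellum, against 657.0 and 638.0 in paternal-7. In the later and the earlier embryos they read 536.5 and 63.29, against 360.2 and 304.6. The brightest Snhg14 probe set read 0.262 and 0.641 in maternal-7 cortex and cerebellum. Whether the Ipw probe set reads a paternally expressed RNA was not tested. Inpp5f, the other one called higher, had 0.93 ± 0.15 (SE, adjusted p = 0.0054) without overlap. Plagl1, a zinc finger factor, had -0.98 ± 0.14 (SE, adjusted p = 0.00413). A dimmer probe set of Impact was called higher (1.12, limma's adjusted p = 0.00789), and one of Kcnq1ot1 lower (-0.98, adjusted p = 0.0176). The brightest ones of these genes had 0.04 and 0.53 without passing.

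Other long noncoding RNAs gave no common direction. Of 19 fixed ones 14 were tested, with 1 higher and 3 lower in neonatal brain by their brightest probe sets. Their median log2 difference was 0.11. All tested probe sets had a median of -0.16, with 14.3% called higher and 16.4% lower. Mir9-3hg, a microRNA host gene, had 1.20 ± 0.18 (SE; limma's adjusted p = 0.00461), and Dlx6os1, transcribed opposite a forebrain interneuron gene, had -1.30 ± 0.19 (SE; adjusted p = 0.00397). Six3os1 and Pantr1, named because they complete the count, had -0.71 and -0.69. Dimmer probe sets of Rmst (-1.18, limma's adjusted p = 0.00904) and Kcnq1ot1 (-0.98, adjusted p = 0.0176) were also called lower. The brightest ones of these genes had -0.71 and 0.53 without passing.

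Genes of proteins that act with such RNAs or on such regions were also listed, and the counts take each gene by its brightest tested probe set. Of 12 genes of Polycomb repressive complex 2, a histone methylating complex that Meg3 has been reported to bind, 4 were tested and 0 passed, with Rbbp4 at -0.38 ± 0.18 and Aebp2 at -0.32 ± 0.15 (SE). Of 15 microRNA processing genes 10 were tested and 0 passed, with Ago1 at -0.46 ± 0.15 (SE; limma's adjusted p = 0.0573) and Ago3 at -0.42 ± 0.17. Of 15 genes of imprint maintenance 7 were tested, with 0 higher and 1 lower. The lower one was Trim28, a corepressor that keeps imprinted methylation, with -0.62 ± 0.12 (SE, adjusted p = 0.0116). A dimmer probe set of Tet2 was called higher (0.66, adjusted p = 0.0147), against -0.06 for its brightest. Dimmer probe sets of Aebp2 had 0.33 and -0.21, and those of Ago3 had 0.43 and -0.27, without passing. In the duplication comparison 0 genes of any of these lists passed by their brightest probe set. The widest log2 differences were -0.41 (Zim2) and 0.13 (Ube3a) among the maternally expressed genes, and 4.42 (Snhg14, the gene used to check the labels) and 0.32 (Ipw) among the paternally expressed ones. After Snhg14, Mir9-3hg had the widest of the long noncoding RNAs, -0.56. Mtf2 (0.41) and Rbbp4 (-0.32) were widest in the Polycomb list, Tnrc6a, an Argonaute partner (-0.70), and Xpo5 (-0.42) in microRNA processing, and Aff3 (-0.23) and Zfp445 (-0.19) in imprint maintenance. Of the genes named for this comparison, Zim2, Ube3a, Snhg14, Ipw, Mir9-3hg and Tnrc6a lie on chromosome 7, whose proximal part is duplicated.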

How the data were processed

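RNA of 8 brain samples was measured on 1 Affymetrix 430B array each, from 9 µg of total RNA per the labels' protocols. The deposited table holds linear signal intensities, made with MAS5 per the submitters' processing notes (version not given in the sources used here). MAS5 summarises each array alone, so dim signals are noisy. The number of arrays limits the precision.

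After 64 control probe sets were set aside, 22511 remained. Of these, 14661 had 1 gene symbol in the platform annotation, 245 had several and 7605 had none. Only single-symbol probe sets were named, with symbols updated through RefSeq. Levels of different probe sets were compared only to pick a gene's brightest one, and were added up only in marker sums.

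Signals were transformed as log2(signal + 58.5), where 58.5 is the median of the 8 arrays' 20th percentiles, which shrinks the differences of dim probe sets. The 13221 probe sets above the array median on at least 2 of 8 arrays were tested. A limma model (version 3.58.1, R 4.3.3) with context and duplication as terms left 3 residual degrees of freedom, and 2 for the interaction. Benjamini-Hochberg adjustment ran over all tested probe sets, with a threshold of 0.05. Ratios between probe sets were compared with exact two-sided permutation tests (scipy 1.17.1). The scripts were tested on simulated data.

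Named beyond the members were the 3 nearest other genes of each, all measured genes of the region, and from each other list the 2 widest genes per comparison, by their brightest tested probe set. The members and lists were chosen with earlier results of these data known. Alternatives were another pseudocount (16), no pseudocount but a floor of 1, no filter, a stricter filter (above the 75th percentile on 2 arrays), quantile normalization, median centring, an intensity trend with robust moderation in limma, no duplication term, and leaving out each context's pair of arrays. Sequences are RefSeq's for GRCm38.p6. The files name no build.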

Additional observations from a re-analysis of the deposited data

Results flagged for a closer look

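Meg3 F had 1 embryonic array far from the other 3. The maternal-7 array at 15.5 dpc read 1951, while the other embryonic arrays read between 111.4 and 270.3. On the linear signal, its gap to the nearest of them was 0.914 of the whole embryonic range, above Dixon's 95% critical value for 4 samples. On the log2(signal + 58.5) scale of the tests, a check added after the data were seen, the gap was 0.733 of the range, below that value. Of 16 groups of 4 arrays checked, this was the only one past that value on the linear signal, and chance alone passes it in about 1 of 20 groups.

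Mirg B had its paternal-7 array above the maternal-7 array in both neonatal contexts and below it in both embryonic ones. The duplication difference was 0.43 higher in neonatal than in embryonic contexts on the log2 scale, with a limma adjusted p of 0.620, so the difference did not pass the test. The neonatal values behind it were 0.15 in cortex and 0.01 in cerebellum, and the embryonic ones -0.49 at 15.5 dpc and -0.21 at 13.5 dpc.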

How the results depend on the processing

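The 6 Meg3 probe sets kept a positive neonatal difference under every setting tried. The count of members called there was 6, and 3 to 6 when 1 pair of arrays was left out. The count over all tested probe sets was 4055, and 1104 to 4348 without a pair. Among single values, 789 kept their direction and their side of the threshold, 20 gained a call, 42 lost one and 15 changed sign. The cause was not tested.

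The later embryonic stage against the earlier one called 1 member. It called 2 after quantile normalization or median centring, 3 with the stricter filter or the intensity trend, and 0 with a floor, without the filter or without either neonatal pair. Over all tested probe sets it called 871, against 459 with the floor, 207 without the filter, 1354 with the stricter filter, 1409 with the trend and 104 to 123 without a pair. Cortex against 15.5 dpc called 2 members, against 1 after quantile normalization or with a pseudocount of 16, 0 with the floor or without the filter, and 0 to 1 without a pair. Over all it called 558, against 240 with the pseudocount of 16, 178 with the floor, 72 without the filter, 1219 with the stricter filter, 1249 with the trend and 0 to 377 without a pair. Cerebellum against 15.5 dpc called 4 members, against 2 after quantile normalization, 1 with the floor, 0 without the filter and 0 to 3 without a pair. Over all it called 722, against 429 with the pseudocount of 16, 241 with the floor, 103 without the filter, 1363 with the stricter filter, 1442 with the trend and 104 to 564 without a pair.

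Cortex against cerebellum called 43 over all, against 27 with the pseudocount of 16, 22 with the floor, 11 without the filter, 83 with the stricter filter, 84 with the trend and 20 to 21 without a pair. The duplication comparison called 1 over all, against 0 with the floor or without the filter, 4 with the stricter filter, 3 with the trend and 0 to 2 without a pair. The other counts stayed within 1.5 times their value.

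The sign changes were in values that had not passed with the main settings, and some of these moved widely. When each pair was left out in turn, the neonatal minus embryonic difference of Mirg B ran from -0.88 (without 15.5 dpc) to 0.29 (without 13.5 dpc). The duplication value of Meg3 B ran from -0.062 to 0.17, and that of Mirg A was 0.0093 without cortex and -0.12 at its lowest. The interaction ran from -0.25 to 0.15 for Meg3 A, from -0.48 to 0.21 for Meg3 B and from -0.12 to 0.26 for Mirg A. That difference of the log2 ratio ran from -0.48 to 0.076 for Meg3 A over C, from -0.20 to 0.89 for A over E, from -0.63 to 0.45 for B over E and from -0.28 to 1.37 for C over E. Quantile normalization gave 0.065 for Meg3 E between cortex and cerebellum and 0.059 for the ratio of Meg3 B over E, and median centring gave 0.075 for the interaction of Meg3 A.

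The duplication comparison was paired by context, which stands in the model. No pairing by animal was possible because the labels carry no replicate numbers. With a pair left out, exact permutation tests cannot go below p = 0.0667, so ratios were then given as differences only.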
